A study of Homo sapiens with 16 samples.

Results

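Conversion rates were compared between ALKBH5 knockdown and control THP-1 cells 4.5 h into a uridine chase. THP-1 is a human monocytic leukaemia line. The knockdown group was THP-1 with ALKBH5 knocked down, and the control group was THP-1 labelled wild type; the labels state neither how the knockdown was made nor whether it was 1 clone. Both groups had received 100 µM 4-thiouridine (4sU) for 1 h and then 10 mM uridine without 4sU, and polyadenylated RNA was sequenced. Each group held 2 libraries, so the comparison uses 4 of the 16 libraries of the series; the other 12 cover the same genotypes at 0, 1.5 and 7.5 h of chase and entered the fit to estimate the spread. Of 60564 genes in the deposited table, 10553 had a value of at least 5 in its abundance column, reads scaled to library size (CPM), and 10549 of these were tested, the rest being at 0 throughout. Whether replicates were separate cultures is not stated, and the p-values below therefore cover a spread between libraries that may be technical. In the abundance column 9 of 12 monocyte markers reached a CPM of 5 (summed CPM 3531), against 1 of 6 lymphoid (6.03), 0 of 6 erythroid (1.51) and 1 of 8 epithelial or stromal markers (29.7).

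SLAM-seq follows new RNA through 4sU, a uridine analogue that is alkylated after extraction and then read as C instead of T. The conversion rate of a gene is the share of its sequenced T bases read as C. During a chase the rate falls as labelled molecules decay and as unlabelled ones are made, so a transcript with fast turnover loses its rate sooner than a long-lived one. ALKBH5 removes N6-methyladenosine (m6A) from RNA. Reader proteins that bind m6A can shorten or lengthen the life of a transcript, which is why turnover is of interest when the eraser is depleted.

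The start of the coding sequence of 2 transcripts is shown because the rate is a property of their T bases, given in capitals. The sequences are from GENCODE 29 on GRCh38, 5′ to 3′ and in the sense orientation, and each is the first 90 coding bases of the transcript with the longest coding sequence. H4C3 encodes a histone H4 and AXL a receptor tyrosine kinase.
H4C3: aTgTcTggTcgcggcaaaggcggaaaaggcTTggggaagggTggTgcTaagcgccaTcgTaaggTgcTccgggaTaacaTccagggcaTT
AXL: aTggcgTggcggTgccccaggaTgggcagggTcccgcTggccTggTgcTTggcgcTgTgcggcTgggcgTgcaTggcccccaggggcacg
H4C3 lies on chromosome 6 at 26103876 to 26104310 on the plus strand and AXL on chromosome 19 at 41219203 to 41261766, also on the plus strand. The coding sequences hold 69 T in 309 bases for H4C3 and 506 T in 2682 bases for AXL. At 4.5 h the mean rate of H4C3 came to 1 converted base per 80 sequenced T in knockdown and per 261 in control, and that of AXL to 1 per 161 in knockdown and per 418 in control.

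The median rate of the transcriptome was 2.31-fold higher in knockdown than in control. The median rate of the tested genes was 0.746% and 0.748% in the knockdown libraries, against 0.318% and 0.329% in the control libraries. The groups did not overlap: the mean of the medians was 0.747% ± 0.00141 in knockdown and 0.324% ± 0.00827 in control (SD, n = 2 each). On log2(rate in percent + 0.05), the scale of all log2 values here, the medians differed by 1.09. An exact permutation test of these medians, two-sided, gave p = 0.333, the smallest that 2 libraries against 2 allow with 6 splits. Knockdown was also the higher at the other times: the mean of the medians was 1.21% in knockdown and 0.552% in control at 0 h, 1.105% in knockdown and 0.475% in control after 1.5 h, and 0.544% in knockdown and 0.258% in control after 7.5 h. Replicates ranked genes alike only in part, with a Spearman correlation across genes of 0.622 between the knockdown libraries and 0.496 between the control libraries; pairs of 1 knockdown and 1 control library ran from 0.490 to 0.515. These correlations are across genes, which are not independent replicates. The files do not give how many T bases were read per gene, so the depth is unknown and no counting interval is given. Between 0.645% and 0.806% of the tested genes were listed at 0 in the knockdown libraries, against 1.38% to 2.1% in the control libraries.

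**Figure D1:**
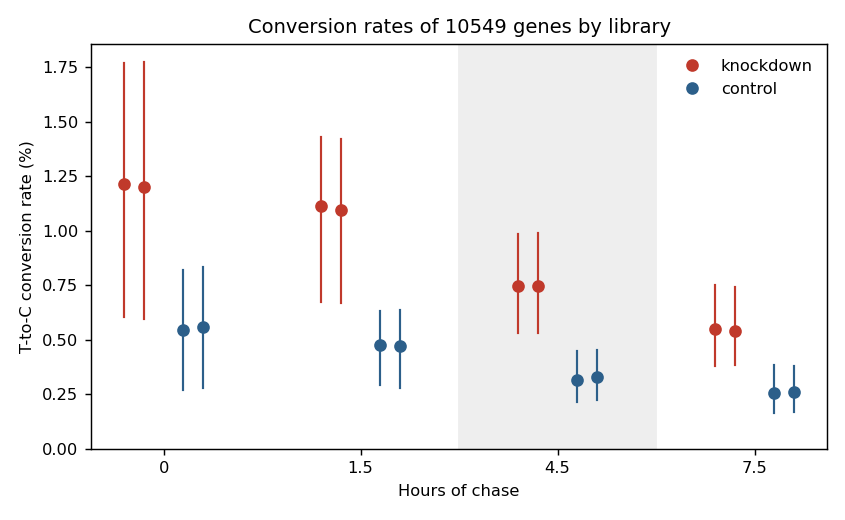
T-to-C conversion rate in percent (vertical axis) by hours of chase (horizontal axis) for the 10549 tested genes; each point is the median of 1 library and each line its interquartile range, with the 2 knockdown libraries left of the 2 control libraries and the 4.5 h comparison shaded. Both knockdown medians lie above both control medians at every time, 0.746% and 0.748% against 0.318% and 0.329% at 4.5 h.

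Gene by gene, 6145 genes (58.3% of those tested) had higher rates in knockdown and 9 (0.0853%) lower rates at an adjusted p under 0.05, by limma on log2(rate in percent + 0.05) with Benjamini-Hochberg adjustment. The median effect was 1.07 log2, with 5% of genes below −0.03 and 5% above 1.92. Both knockdown libraries lay above both control libraries for 80.6% of the genes and below both for 1.14%. This scale understates the fold, most of all in genes with low rates. Because the knockdown libraries lay higher as a whole, the median log2 rate of each library was also subtracted from its genes. A centred effect is the difference of a gene from the common shift. Centring does not correct the understated fold of genes with low rates. On the centred scale 17 genes (0.161%) were higher and 118 (1.12%) lower, 5012 (47.5%) lay above 0, and the groups did not overlap for 18.9% of the genes upward and 23.2% downward. All 17 centred-higher genes were also higher uncentred. Of the 118 centred-lower genes, 27 were higher uncentred, 82 passed in neither direction and 9 were lower. The centred counts rested on the spread borrowed from all 16 libraries and on its trend with abundance: 0 genes were higher and 8 lower when only the 4 libraries at 4.5 h were fitted (1167 at an unadjusted p under 0.05), and 8 higher and 42 lower without the trend. Leaving out 1 library gave 61 to 92 centred calls, the fewest without knockdown replicate 1.

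The 10 largest uncentred effects upward among genes of at least median abundance are given first. Their control rates at 4.5 h lay under the library medians, which ranking by the difference in the same libraries favours. NIT1, an amidase that repairs a damaged form of glutathione, had rates of 0.789% and 0.445% in knockdown, against 0.0458% and 0.0312% in control, an effect of 2.87 log2 (SE 0.36, adjusted p = 8.43e-05). DUS2, which makes dihydrouridine in transfer RNA, had 0.844% and 0.964% in knockdown, against 0.116% and 0.0452% in control (2.92 log2, SE 0.56, adjusted p = 0.00130). UBE2T, the ubiquitin-conjugating enzyme of the Fanconi anaemia pathway, had 1.61% and 1.50% in knockdown, against 0.190% and 0.206% in control (2.69 log2, SE 0.43, adjusted p = 0.000442). The rule that picked them also asked for an adjusted p under 0.05, no rate of 0 at 4.5 h and no overlap between the groups. Their separation was thus set by the choice. GSTZ1, SDR39U1, FAIM, RPL36A, NAT9, TDRD3 and SNX20 completed the 10 by the same rule, with effects of 2.54 to 2.91 log2. All 10 passed without each of the 4 libraries. NIT1 shares exon sequence with DEDD and PFDN2 on the other strand, and DUS2 with DDX28 and DPEP2; reads of such neighbours cannot be told apart unless counting used strand, which is not stated here. None of the 9 genes lower uncentred met the rule for naming. Chosen after their values were seen, they were MIR924HG, PFKFB4, MT-TH, LINC01877, TPD52L1, ROPN1L, ADNP-AS1, NUBPL and EIF2D, with CPM between 5.16 and 28.7. PFKFB4, a regulator of glycolysis and a hypoxia target, was listed at 0 and 0.0281% in knockdown, against 0.500% and 1.34% in control (−3.80 log2, adjusted p = 0.00278). The median CPM of all tested genes was 21.6. The number of T bases behind these rates is not known, so how far single reads set them was not tested.

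ALKBH5 itself, on chromosome 17, had a CPM of 4.55, under the abundance minimum. Its rate was 1.35% and 0.246% in knockdown, against 0.304% and 0.410% in control. The groups overlapped, and in a fit with a CPM minimum of 1 the effect was 0.67 log2 (SE 0.66, adjusted p = 0.441), or −0.41 centred (adjusted p = 0.892). At 0 h its rates were 3.31% and 2.46% in knockdown, against 0.812% and 0.386% in control, and the groups did not overlap. The table holds 1 abundance column for the whole series, so whether ALKBH5 was less abundant in the knockdown libraries could not be checked, and a conversion rate does not measure abundance.

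Of 9 tested genes linked to the KDM4C, ALKBH5 and AXL axis in leukaemia, 5 had higher rates in knockdown and none was called centred. Among all tested genes 58.3% were higher, and among those with a CPM of 30.3 to 73.9, 73.3%. The 9 genes had a median CPM of 35.8. AXL had 0.576% and 0.671% in knockdown, against 0.226% and 0.251% in control, an effect of 1.22 log2 (SE 0.16, adjusted p = 0.000131) and a centred effect of 0.13 (adjusted p = 0.830). KDM4C, a demethylase of histone H3 lysine 9, had 0.766% and 0.978% in knockdown, against 0.286% and 0.302% in control (1.41 log2, adjusted p = 0.000204). MYB, a transcription factor of myeloid progenitors, had 0.747% and 1.14% in knockdown, against 0.300% and 0.322% in control (1.43 log2, adjusted p = 0.000467). In all 3 the groups did not overlap. MYC, the growth regulator, had 0.556% and 0.541% in knockdown, against 0.299% and 0.239% in control (0.91 log2, adjusted p = 0.0489), and lost the call without any of the 4 libraries (adjusted p 0.0831 to 0.177). TACC3, a spindle protein, had 1.17% and 1.14% in knockdown, against 0.398% and 0.989% in control (0.82 log2, adjusted p = 0.0499); its effect was 0.21 log2 (adjusted p = 0.535) without control replicate 1, and it was also lost without knockdown replicate 1 (adjusted p = 0.137) or 2 (adjusted p = 0.127).

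POLR2A, the largest subunit of RNA polymerase II, had 0.601% and 0.916% in knockdown, against 0.850% and 0.597% in control, and the groups overlapped (0.06 log2, adjusted p = 0.894). MERTK, a receptor of the AXL family, had 0.262% and 0.493% in knockdown, against 0.343% and 0.318% in control (0.12 log2, adjusted p = 0.831). Its ligands GAS6 (0.34 log2, adjusted p = 0.639) and PROS1 (0.82 log2, adjusted p = 0.101) did not pass either, and TYRO3, the third receptor, was not tested at a CPM of 0.741. The median centred effect of the 9 genes was −0.27, against −0.03 for all tested genes, and it turned to 0.17 without control replicate 2. Among 19 tested genes of the m6A machinery, which holds writers, erasers and readers, 12 were higher uncentred, against 58.3% of all tested genes. None was called centred (median −0.16). The list's median CPM was 41.9, and 73.3% of tested genes with a CPM of 30.3 to 73.9 were higher. METTL3, the methyltransferase subunit, had 0.715% and 0.509% in knockdown, against 0.403% and 0.552% in control, with overlapping groups (0.32 log2, adjusted p = 0.437). HNRNPA2B1, a reader candidate, had 0.443% and 0.483% in knockdown, against 0.197% and 0.199% in control (1.05 log2, adjusted p = 0.000224; centred −0.05, adjusted p = 0.950).

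The centred median of the histone list was 0.45, and H4C3 was the 1 member past the threshold on the centred scale. The list's median rates were 1.04% and 1.13% in knockdown, against 0.339% and 0.266% in control. The control libraries differed, with centred levels of the list of 0.0818 and −0.265. H4C3 had rates of 1.24% and 1.26% in knockdown, against 0.381% and 0.385% in control. The replicates of each group lay close together and the groups far apart, with an uncentred effect of 1.58 log2 (SE 0.09, adjusted p = 1.08e-06) and a centred effect of 0.49 (SE 0.08, adjusted p = 0.0143). Its centred effect was 0.47 to 0.50 without each of the 4 libraries, with adjusted p of 0.0730 to 0.109. Of 15 tested histone genes 13 had higher rates in knockdown, against 58.3% of all tested genes, and 13 lay above 0 on the centred scale, against 47.5%. Without a CPM minimum, where the median of all genes was −0.79, the list's centred median was −0.01, and 0 of the 31 lists with at least 5 tested members had a median above 0. H3-3B, a replication-independent H3.3 gene, had 1.19% and 1.29% in knockdown, against 0.406% and 0.468% in control (centred 0.31, adjusted p = 0.111). H2AZ1, encoding the variant H2A.Z, had 1.25% and 1.2% in knockdown, against 0.383% and 0.438% in control (centred 0.38, adjusted p = 0.149). The list's centred median was also above 0 at 0 h (0.29) and at 1.5 h (0.28). Most replication-dependent histone messages end in a stem-loop without a poly(A) tail, so polyadenylated libraries hold only part of them.

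Further centred-higher genes of at least median abundance belonged to none of the gene lists. NIFK, a nucleolar partner of Ki-67, had 1.43% and 1.10% in knockdown, against 0.245% and 0.266% in control (centred 1.00, SE 0.19, adjusted p = 0.0250). PCOLCE2, a procollagen C-proteinase enhancer, had 0.573% and 0.386% in knockdown, against 0.0631% and 0.0638% in control (centred 1.11, SE 0.23, adjusted p = 0.0381). NEDD8, the ubiquitin-like protein that activates cullin ligases, had 0.876% and 0.934% in knockdown, against 0.189% and 0.261% in control (centred 0.71, SE 0.14, adjusted p = 0.0241). NEDD8-MDP1, a readthrough gene, shares its exons and is not a separate observation. NIT1 was also higher centred (1.78, adjusted p = 0.0322). In fits without 1 of the 4 libraries, where the lone library of a group is assumed to vary like the other groups, H4C3 passed in 0 of 4, and NIFK, PCOLCE2, NEDD8 and NIT1 in 1 of 4. Over all 17 genes, 3 passed in all 4.

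**Figure D2:**
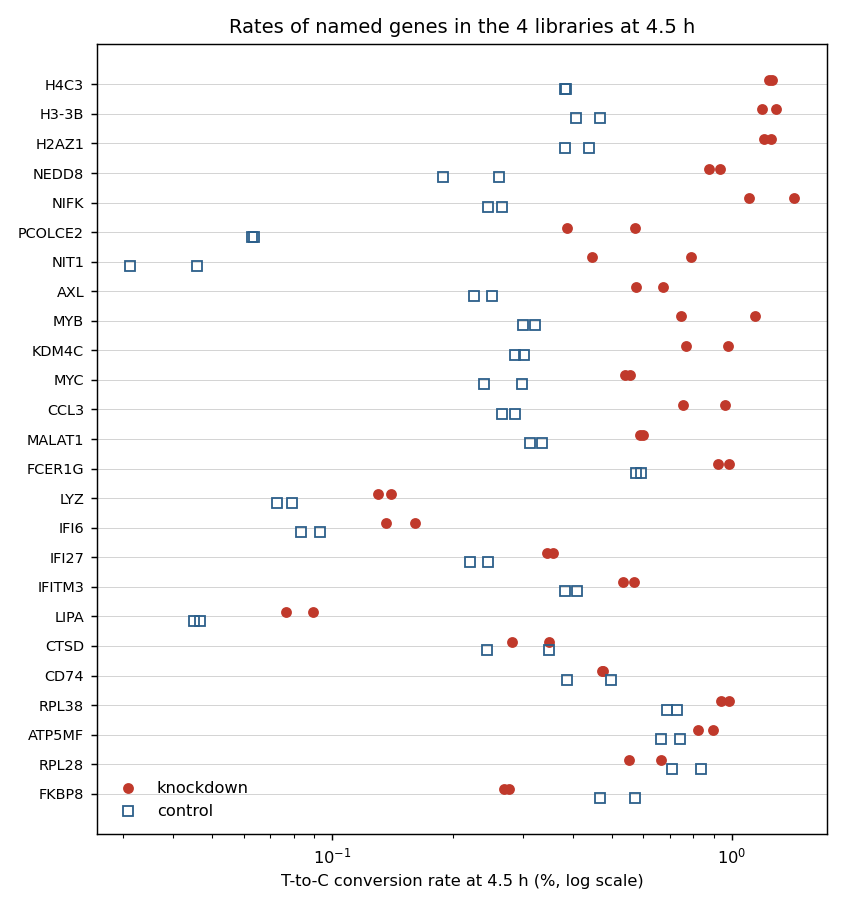
T-to-C conversion rate in percent on a log scale (horizontal axis) of named genes (rows) in the 4 libraries at 4.5 h; filled circles are the knockdown libraries and open squares, drawn lower in each row, the control libraries. H4C3 through AXL show wide gaps between the groups, LYZ and IFITM3 narrow ones, and RPL28 and FKBP8 have the knockdown libraries at the lower rates.

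Monocyte and macrophage markers had 7 of 32 tested members called lower on the centred scale, against 1.12% of all tested genes, more than any other list, and a centred median of −0.28. Uncentred, 20 of the 32 were higher in knockdown, against 58.3% of all tested genes, and none was lower. The list's median CPM was 99.7. In the most abundant quintile of tested genes, at a CPM of at least 74, 87.7% were higher and 73 of 2109 lower centred. LYZ, which encodes lysozyme, had 0.130% and 0.140% in knockdown, against 0.0727% and 0.0791% in control. The groups did not overlap, yet the gap of 0.56 log2 (SE 0.07, adjusted p = 6.96e-05) was smaller than the shift. The centred effect was −0.54 (SE 0.07, adjusted p = 0.00144). The centred call of LYZ was lost after quantile normalization, without the variance trend, without a CPM minimum and with only the 4 libraries fitted. CD74, the invariant chain of MHC class II, had 0.472% and 0.476% in knockdown, against 0.387% and 0.498% in control, so the groups overlapped (0.10 log2, adjusted p = 0.533; centred −0.99, SE 0.13, adjusted p = 0.00209). CTSD, the lysosomal protease cathepsin D, had 0.349% and 0.281% in knockdown, against 0.244% and 0.348% in control (0.09 log2, adjusted p = 0.661; centred −1.005, SE 0.17, adjusted p = 0.0108). FCER1G, the Fc receptor gamma chain, had 0.981% and 0.924% in knockdown, against 0.593% and 0.575% in control (0.66 log2, adjusted p = 6.28e-05; centred −0.43, adjusted p = 0.0180). The rest, chosen after their values were seen, were CST3 (cystatin C), AZU1 and ELANE (granule proteins of early myeloid cells), with centred effects of −0.81, −1.11 and −0.88. LYZ and CD74 passed in all 4 leave-one-out fits, CTSD in 2, ELANE in 1 and FCER1G, CST3 and AZU1 in 0.

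Lysosomal genes had 22 of 36 tested members higher in knockdown, against 58.3% of all tested genes, and 2 lower centred, against 1.12%. Their centred median was −0.28 and their median CPM 57.1. Of tested genes with a CPM of 30.3 to 73.9, 73.3% were higher and 28 of 2111 lower centred. LIPA, the lysosomal acid lipase, had 0.0768% and 0.0894% in knockdown, against 0.0452% and 0.0468% in control (0.47 log2, adjusted p = 0.00171; centred −0.62, SE 0.10, adjusted p = 0.00602), and passed in 2 of 4 leave-one-out fits. Its raw rates differed 1.81-fold, and the centred call was lost with a pseudocount of 0.01 and after quantile normalization. The other was CTSD. PPT1, the lysosomal palmitoyl thioesterase and the most abundant member tested, had 0.270% and 0.313% in knockdown, against 0.115% and 0.108% in control, and moved with the shift (1.08 log2, adjusted p = 6.02e-05; centred −0.02, adjusted p = 0.983).

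Among 52 tested interferon-stimulated genes, 47 were higher in knockdown, against 58.3% of all tested genes, and 3 lower centred, against 1.12%. Their centred median was −0.05 and their median CPM 119. Of tested genes with a CPM of at least 74, 87.7% were higher and 73 of 2109 lower centred. IFITM3, a membrane protein that blocks virus entry, had 0.533% and 0.568% in knockdown, against 0.383% and 0.410% in control (0.43 log2, adjusted p = 0.000261; centred −0.67, SE 0.06, adjusted p = 0.000120). IFI27, an interferon-inducible protein and with a CPM of 25890 the most abundant member, had 0.344% and 0.357% in knockdown, against 0.221% and 0.245% in control (0.50 log2, adjusted p = 6.04e-05; centred −0.59, SE 0.05, adjusted p = 0.000119). IFI6 had 0.136% and 0.161% in knockdown, against 0.0835% and 0.0933% in control (0.52 log2, adjusted p = 0.000735; centred −0.58, SE 0.09, adjusted p = 0.00584). In all 3 the groups did not overlap and the ratio of the mean rates was 1.39 for IFITM3, 1.50 for IFI27 and 1.68 for IFI6. Without 1 of the 4 libraries the centred effect of IFITM3 was −0.71 to −0.63. That of IFI27 was −0.63 to −0.55 and that of IFI6 −0.67 to −0.48. All 3 lost the centred call without the variance trend and without a CPM minimum. IFITM3 and IFI6 also lost it with only the 4 libraries fitted.

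Of 79 tested cytoplasmic ribosomal protein genes, 65 were higher in knockdown, against 58.3% of all tested genes. The list's median CPM was 449, and 87.7% of tested genes with a CPM of at least 74 were higher. The list followed the common shift, with a centred median of −0.01, apart from members that were lower centred, of which 2 are described. RPL28 had 0.663% and 0.552% in knockdown, against 0.837% and 0.708% in control. Both knockdown libraries lay below both control libraries (−0.32 log2, adjusted p = 0.0595; centred −1.42, SE 0.14, adjusted p = 0.000291). RPL38 had 0.939% and 0.984% in knockdown, against 0.687% and 0.729% in control (0.42 log2, adjusted p = 0.000641; centred −0.68, SE 0.07, adjusted p = 0.000526). The centred calls of RPL28 and RPL38 were lost without a CPM minimum and with only the 4 libraries fitted. That of RPL38 was also lost without the variance trend. The control rates of both were above the list's library medians of 0.202% and 0.196%. RPL30, the most abundant member, had 0.441% and 0.349% in knockdown, against 0.163% and 0.177% in control (1.01 log2, adjusted p = 0.000317; centred −0.08, adjusted p = 0.894). Ribosomal protein genes have many near-identical pseudogene copies, and how reads were shared among them is not given in the sources used here.

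MALAT1, a nuclear long noncoding RNA and the most abundant gene tested, had 0.588% and 0.599% in knockdown, against 0.313% and 0.334% in control, an effect of 0.79 log2 (SE 0.04, adjusted p = 1.02e-06) and −0.31 centred (SE 0.04, adjusted p = 0.00111). Its centred call was lost without the variance trend, without a CPM minimum and with only the 4 libraries fitted. Long noncoding genes as a class made up 37 of the 118 centred-lower genes (31.4%), against 958 of the 10549 tested (9.08%); their median rates were 0.501% and 0.518% in knockdown, against 0.231% and 0.232% in control. FKBP8, a mitochondrial immunophilin, had the lowest centred effect by the naming rule, with rates of 0.269% and 0.277% in knockdown, against 0.467% and 0.572% in control (centred −1.91, SE 0.33, adjusted p = 0.0130), and passed in 0 of 4 leave-one-out fits (adjusted p 0.0595 to 0.0990). The others of that rule, SLC23A1, NUP62CL, C1orf56, DNAJC9-AS1, EOGT-DT, AC026202.2, AC135178.3 and AC135457.1, had centred effects of −1.63 to −1.43. None passed uncentred (−0.54 to −0.34 log2, adjusted p 0.0856 to 0.321), and all lost the centred call with only the 4 libraries fitted. Some rates lay near the pseudocount of 0.05, which shrinks the log2 effect. AC135178.3 had 0.0222% and 0.0136% in knockdown, against 0.0417% and 0.0409% in control.

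**Figure D3:**
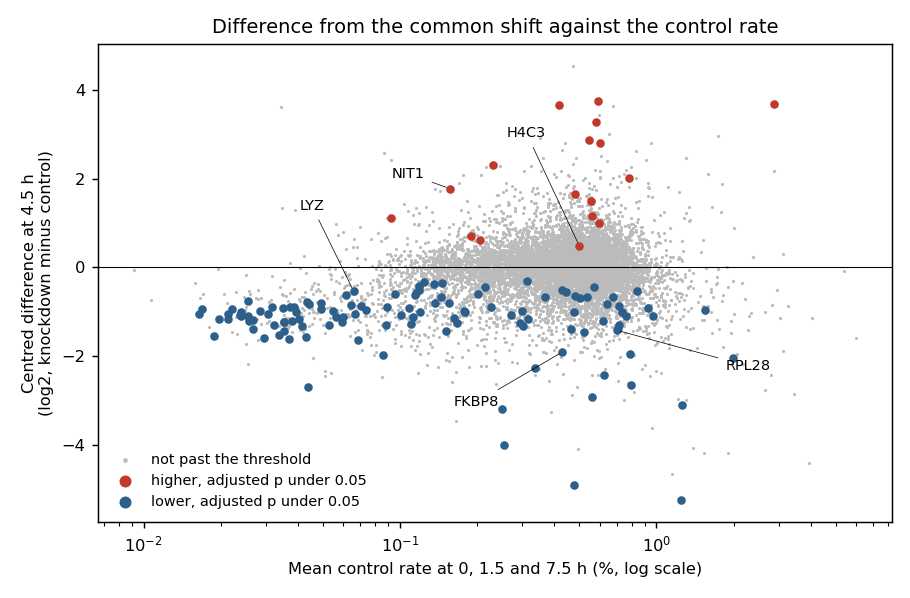
Centred difference at 4.5 h in log2, knockdown minus control (vertical axis), against the mean control rate at 0, 1.5 and 7.5 h in percent on a log scale (horizontal axis), 1 point per tested gene with a control rate above 0; red points passed higher and blue points lower. The blue points crowd at control rates under 0.1%, where 54 of the 118 centred-lower genes lie, and H4C3 and NIT1 lie above the line.

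The centred-lower genes had lower control rates at the other times, with a median of 0.115% against 0.468% for all tested genes. The libraries of those times entered the calls only through the spread. The mean control rate over 0, 1.5 and 7.5 h was under 0.1% for 54 of the 118 genes (45.8%), against 405 of the 10549 tested (3.84%). For those 405 genes the median rates were 0.0789% and 0.0778% in knockdown, against 0.0501% and 0.0543% in control, a median effect of 0.30 log2. Between 0.4% and 0.8% the median rates were 0.821% and 0.822% in knockdown, against 0.352% and 0.368% in control, a median effect of 1.11 log2. Above 0.8% the median effect was 0.80 log2 over 566 genes. The pseudocount of 0.05 percentage points shrinks the log2 effect of rates near it. With 0.01 in its place 16 genes were higher centred and 66 lower, and with 0.2 the numbers were 30 and 238. LIPA, IFI6, CST3, AZU1, ELANE, MT-ND6 and MT-RNR1 lost their centred calls with 0.01, and LYZ kept its call. The mismatch background of RNA never exposed to 4sU is not known for these rates. With tested genes restricted to a mean control rate of at least 0.2%, a restriction added after the data were seen, 5 genes were higher centred and 29 lower.

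The control's own change over the chase differed as well. Between 0 and 7.5 h the median change of the control rate was −0.77 log2 over all tested genes and 0.07 over the centred-lower genes. In the quintile of genes with the most negative control change, at a median of −2.1 log2, the median effect at 4.5 h was 1.16 log2 and 4 genes were lower centred. In the 2110 genes with a control change between −0.45 and 0.21, the median effect was 0.98 log2 and 73 were lower centred. Across genes the Spearman correlation of the centred effect with the control change was −0.154, with the mean control rate 0.0647, with CPM 0.0424 and with the T content of the longest transcript 0.0560. The control change uses 4 control libraries at 0 and 7.5 h, none of them in the 4.5 h comparison. Abundance also differed, since 73 of the 118 centred-lower genes (61.9%) had a CPM of at least 74, against 2109 of the 10549 tested. Higher CPM went with more uncentred calls, with 1849 of 2109 genes higher in the most abundant quintile and 613 of 2113 in the least abundant one.

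Proliferation genes had centred medians slightly above 0, with no member called centred. Of 51 tested genes of mitosis and the spindle, 45 were higher in knockdown, against 58.3% of all tested genes. The list's median CPM was 35.1, and 73.3% of tested genes with a CPM of 30.3 to 73.9 were higher. On the centred scale 38 of the 51 lay above 0, against 47.5% (median 0.20). CENPF, a kinetochore protein, had 1.78% and 1.74% in knockdown, against 0.467% and 0.560% in control (1.69 log2, adjusted p = 2.11e-05; centred 0.59, adjusted p = 0.136). CDK1, the mitotic kinase, had 1.87% and 1.95% in knockdown, against 0.437% and 0.703% in control (1.70 log2, adjusted p = 0.000229; centred 0.60, adjusted p = 0.309). The list's median rates, 1.19% and 1.24% in knockdown against 0.454% and 0.511% in control, were the highest of the 31 lists with at least 5 tested members. For DNA replication and S phase 36 of 49 were higher, against 58.3% of all tested genes, with a centred median of 0.14 and a median CPM of 30.5. GMNN, the licensing inhibitor geminin, had 1.22% and 1.39% in knockdown, against 0.447% and 0.258% in control (1.79 log2, adjusted p = 0.000107).

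Genes of cholesterol and fatty acid synthesis had the next highest centred median after histones, 0.32, with 18 of 28 tested members higher in knockdown, against 58.3% of all tested genes, and none called centred. The median was −0.14 without a CPM minimum. INSIG1, the sterol sensor that retains SCAP in the endoplasmic reticulum, had 1.30% and 1.33% in knockdown, against 0.273% and 0.314% in control (adjusted p = 0.000133; centred 0.90, adjusted p = 0.158). SQLE, squalene epoxidase, had 1.29% and 1.27% in knockdown, against 0.393% and 0.495% in control (1.44 log2, adjusted p = 1.51e-05). The list's 4 library medians differed between replicates, 0.898% and 0.727% in knockdown against 0.274% and 0.318% in control. Immediate early and other short-lived messages had 20 of 33 higher, against 58.3% of all tested genes. Their median CPM was 14.2, and 43.2% of tested genes with a CPM of 8.89 to 15.8 were higher. Their centred median was 0.16, which was −0.12 at a CPM minimum of 20. FOS, an immediate early transcription factor, had 1.43% and 0.803% in knockdown, against 0.116% and 0.121% in control (2.73 log2, adjusted p = 0.00525; centred 1.64, adjusted p = 0.333), and SGK1, a stress-induced kinase, had 0.287% and 0.632% in knockdown, against 0.789% and 0.604% in control, with overlapping groups. For p53 pathway genes 13 of 17 were higher (centred median 0.20) and for snoRNA host genes 16 of 22 (0.25). None of either list was called centred. The median CPM was 22.1 for p53 pathway genes and 147 for snoRNA host genes. Of tested genes 58.1% were higher at a CPM of 15.9 to 30.3 and 87.7% at a CPM of at least 74.

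**Figure D4:**
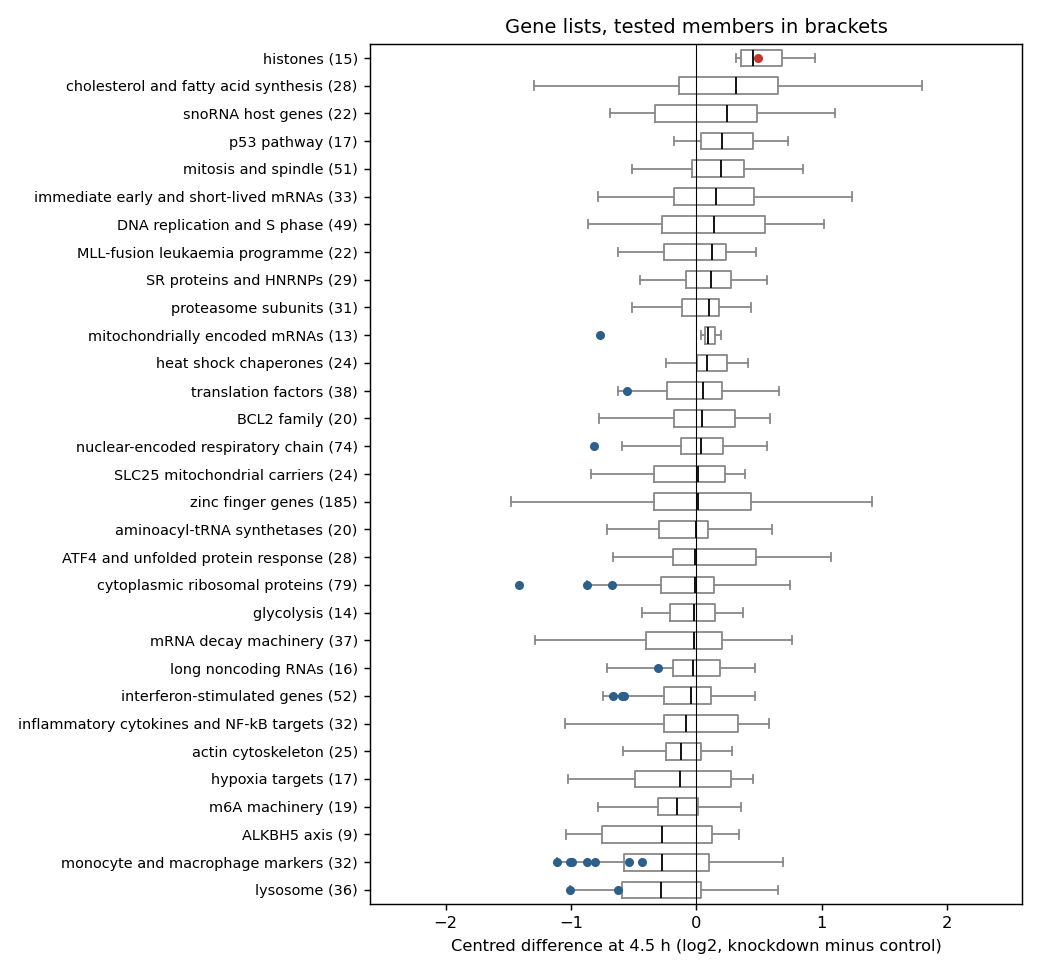
Centred difference at 4.5 h in log2, knockdown minus control (horizontal axis), for the tested members of 31 gene lists (rows, ordered by median, number of tested members in brackets); boxes span the quartiles with the median as a black line, whiskers reach 1.5 times the interquartile range, and dots are members past the threshold. Histones lie at the top with a median of 0.45 and lysosome genes at the bottom with −0.28. Blue dots passed lower and red dots higher, and monocyte markers have the most blue dots. The dot of PFKFB4 in the hypoxia row, at −4.90, lies beyond the axis and is not shown.

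Housekeeping groups moved with the shift. Of all tested genes 58.3% were higher and 1.12% lower centred. At a CPM of at least 74 the values were 87.7% and 73 of 2109. Both knockdown libraries lay above both control libraries for 80.6% of all tested genes. The median CPM was 361 for the respiratory chain, 150 for the proteasome, 221 for actin and 98.6 for translation factors. Of 74 nuclear-encoded genes of the respiratory chain, 71 were higher in knockdown and the centred median was 0.04; ATP5MF, a subunit of ATP synthase, was the 1 called lower centred, with 0.823% and 0.894% in knockdown, against 0.663% and 0.742% in control (0.27 log2, adjusted p = 0.0341; centred −0.82, adjusted p = 0.000878). Without 1 of the 4 libraries the effect of ATP5MF was 0.20 to 0.35 log2 uncentred and −0.88 to −0.77 centred. Its centred call was lost without the variance trend, without a CPM minimum and with only the 4 libraries fitted. It shares exons with PTCD1. All 31 proteasome genes had knockdown above control in every pair of libraries, 30 of them past the threshold, with a centred median of 0.10. Of 25 actin cytoskeleton genes 24 were higher, with a centred median of −0.13, and TMSB4X, thymosin beta 4, had 0.488% and 0.491% in knockdown, against 0.237% and 0.260% in control (0.85 log2, adjusted p = 4.44e-06). Of 38 translation factors 32 were higher and 1 was lower centred, PABPC1, the poly(A)-binding protein, with 0.639% and 0.682% in knockdown, against 0.451% and 0.428% in control (0.54 log2, adjusted p = 0.00131; centred −0.56, adjusted p = 0.0250), which passed in 0 of 4 leave-one-out fits.

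Mitochondrially encoded messages, which are made and decayed inside the organelle, also had higher rates in knockdown. Of 13 tested, 12 were higher, against 58.3% of all tested genes and 87.7% of those with a CPM of at least 74. The list's median CPM was 442. Its centred median was 0.10, which was −0.06 with a pseudocount of 0.2. MT-CO2 had 0.394% and 0.392% in knockdown, against 0.142% and 0.143% in control (1.2 log2, adjusted p = 1.42e-06; centred 0.11, adjusted p = 0.664). MT-ND6, a complex I subunit encoded on the light strand, had 0.0752% and 0.0473% in knockdown, against 0.0390% and 0.0376% in control, did not pass uncentred (0.32 log2, adjusted p = 0.0741) and was lower centred (−0.77, adjusted p = 0.0241). The 2 mitochondrial ribosomal RNAs, chosen after their values were seen, were lower centred too: MT-RNR2 had 0.0757% and 0.0728% in knockdown, against 0.0527% and 0.0563% in control (centred −0.84, SE 0.05, adjusted p = 7.46e-06), and MT-RNR1 had 0.150% and 0.143% in knockdown, against 0.0777% and 0.108% in control (centred −0.63, adjusted p = 0.0377). In leave-one-out fits the centred call of MT-RNR2 held in 4 of 4, and those of MT-ND6 and MT-RNR1 in 1 of 4.

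Whether the difference at 4.5 h departed from that at the other times was tested as the effect at 4.5 h minus the mean of the effects at 0, 1.5 and 7.5 h. By limma 0 genes (0.0% in each direction) passed on either scale; 584 (5.54%) had an unadjusted p under 0.05 centred and 609 (5.77%) uncentred. The median effect over the chase was 1.03, 1.10, 1.07 and 0.94 log2 in the order of the 4 times. Of the 118 centred-lower genes 106 (89.8%) had a centred effect below 0 at all 3 other times. Among all tested genes, called or not and of either sign, 27.1% kept their 4.5 h sign at all 3. However, 54 of the 118 had mean control rates under 0.1%. The 405 tested genes at such rates had centred medians of −0.771, −0.766, −0.788 and −0.652 in the order of the 4 times. All times share the pseudocount, and its part in the shared sign was not tested. Of the 17 centred-higher genes 5 (29.4%) were above 0 at all 3. The times share no library; the other 12 entered the 4.5 h contrast only through the spread.

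The genes with the smallest p for this contrast did not pass after adjustment. BRK1, a subunit of the WAVE complex that drives actin branching, had 0.681% and 0.875% in knockdown, against 0.127% and 0.201% in control at 4.5 h, with a difference of 1.50 from the other times (adjusted p = 0.408). In the other direction, PDE4D, a cyclic AMP phosphodiesterase, had 0.518% and 0.363% in knockdown, against 0.467% and 0.563% in control, with overlapping groups and a difference of −1.14 (adjusted p = 0.612). DDX3X, an RNA helicase, had 0.774% and 0.827% in knockdown, against 0.554% and 0.518% in control (difference −0.78, adjusted p = 0.612). NIT1, DUS2 and MROH8 on the higher side and CCNC and NCOA1 on the lower side were also among the smallest, with adjusted p between 0.550 and 0.633.

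The course over the chase differed among the named genes. H4C3 in knockdown held 1.85% and 1.94% at 0 h and 0.758% and 0.733% at 7.5 h, while in control it held 0.642% and 0.669% at 0 h and 0.210% and 0.221% at 7.5 h, so both genotypes lost rate. LYZ in knockdown held 0.0900% and 0.0923% at 0 h and 0.126% and 0.121% at 7.5 h, and in control 0.0550% and 0.0568% at 0 h and 0.0782% and 0.0789% at 7.5 h, so neither genotype had a lower rate at the end than at the start. MALAT1 in knockdown lay between 0.512% and 0.599% in all 8 libraries, and in control between 0.290% and 0.341%. IFITM3 and IFI27 were higher at 7.5 h than at 0 h in both genotypes, and IFITM3 in knockdown began at 0.444% and 0.424% and ended at 0.591% and 0.559%. At 0 h RPL28 had 0.854% and 0.784% in knockdown, against 0.583% and 0.725% in control, so both knockdown libraries were the higher there.

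**Figure D5:**
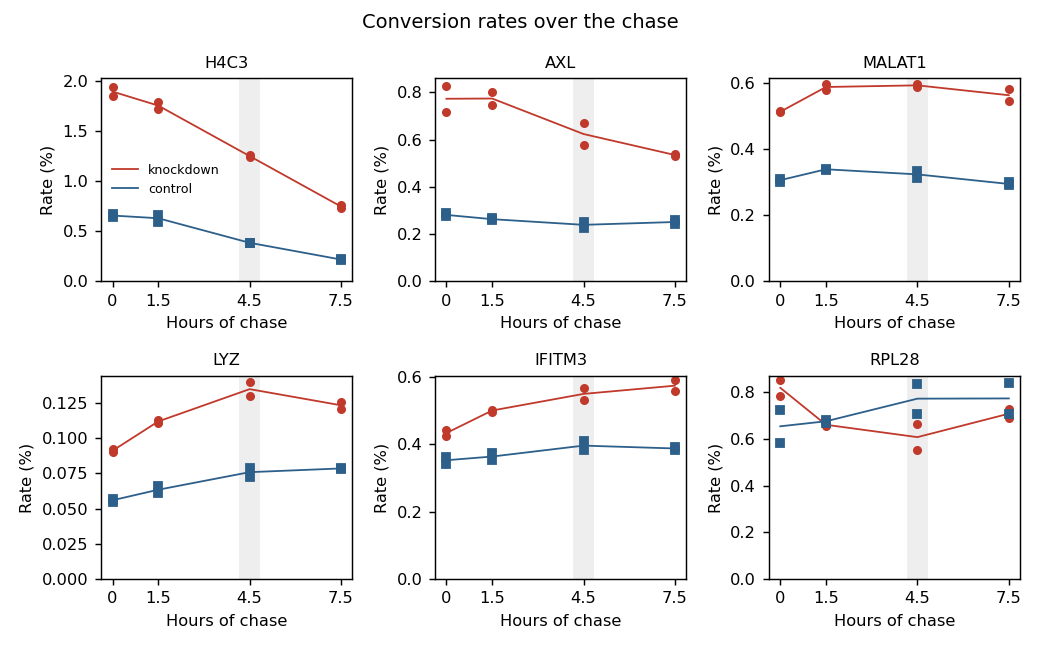
T-to-C conversion rate in percent (vertical axis, from 0) over hours of chase (horizontal axis) for 6 genes; circles are the knockdown libraries, squares the control libraries and lines join the means of 2 libraries, with 4.5 h shaded. H4C3 loses rate in both genotypes and stays higher in knockdown, LYZ and IFITM3 do not fall, and RPL28 has the knockdown libraries below the control libraries at 4.5 h.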

How the data were processed

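Conversion rates in 16 libraries of THP-1 cells were used as deposited: fractions of T bases read as C, made by the authors with CASAVA and HISAT2 2.1.0 on hg38, per the submitters' processing notes, and multiplied by 100 here. The authors deposited a single CPM column, whose library is not named; its values were whole multiples of 0.0265 (100% within 0.1 read), and no count test between groups was possible. Columns beginning with C matched the control titles, and the S columns, left over, were assigned to the knockdown. The model, run on genes at a CPM of at least 5 in limma 3.58.1 (R 4.3.3), used log2(percent + 0.05), with 8 group means over 16 libraries (8 residual degrees of freedom), a variance trend in CPM and Benjamini-Hochberg adjustment at 0.05, without and with subtraction of each library's median. Symbols, exon overlaps and sequences came from GENCODE 29. Named genes were the axis genes, the up to 10 largest called effects per direction at or above median CPM without zeros or overlap, up to 2 most abundant and 3 smallest-p members per list, and 5 per direction against the other times. Members and lists were chosen with earlier results of these data known. Alternatives varied the pseudocount, CPM minimum, zeros, libraries fitted, variance trend, normalization and replicate block, and left out each library. A few genes and a sequence that these rules select are not reported here.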

Additional observations from a re-analysis of the deposited data

Results flagged for a closer look

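Some named genes had an effect at another time opposite to that at 4.5 h in every library. The differences between single times were not tested, and none of these genes passed when 4.5 h was set against the mean of the other times. FKBP8, lower in knockdown at 4.5 h, had uncentred effects of 0.411 log2 after 1.5 h and 0.797 after 7.5 h. GADD45B, a stress-induced gene, had 1.356 at 0 h, 0.624 after 1.5 h and 1.263 after 7.5 h, against −0.43 at 4.5 h. PFKFB4 had 2.772 at 0 h and 1.237 after 1.5 h, against −3.80 at 4.5 h. RPL28 had 0.310 at 0 h. P4HA1, a collagen prolyl hydroxylase, had −0.701 after 7.5 h, against 0.27 at 4.5 h. Noncoding and low-rate genes were flagged in the same way: AC026202.2 had 0.457 at 0 h, AC135178.3 had 0.306 at 0 h and 0.317 after 1.5 h, EOGT-DT had 0.619 at 0 h, and NUP62CL had 0.412 after 7.5 h.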

How the results depend on the processing

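The difference of the library medians, 1.09 log2, was 1.09 to 1.10 in the 3 alternatives on genes tested, and 1.18 and 0.855 with pseudocounts of 0.01 and 0.2 (added after the data were seen), and uncentred calls numbered 4347 to 6421 (main 6154; 4528 to 4994 with 1 library left out). The 135 centred calls became 82 and 268 with pseudocounts of 0.01 and 0.2, 7 without a CPM minimum, 8 with only the 4 libraries, 50 without the variance trend, 86 (24 higher, 62 lower) after quantile normalization, 34 with control rates of at least 0.2% (added after the data were seen) and 61 to 92 with 1 library left out. Against the other times, 0 calls became 3 with a pseudocount of 0.01, 1 at a CPM minimum of 1, 1 without a minimum and 0 to 1 with 1 library left out (1 without knockdown replicate 2), on both scales. Lists with a centred median above 0 numbered 17, and 0 without a CPM minimum, where the median of all 37510 genes was −0.79. There the medians turned to −0.332 (MLL-fusion programme), −0.299 (short-lived messages), −0.259 (mitosis), −0.318 (DNA replication), −0.360 (mitochondrial messages), −0.371 (heat shock), −0.255 (p53), −0.209 (snoRNA hosts), −0.339 (SR proteins and HNRNPs) and −0.357 (proteasome); those of histones (−0.01) and cholesterol synthesis (−0.14) also fell below 0. Other turns were −0.118 for short-lived messages at a CPM minimum of 20, −0.059 for mitochondrial messages with a pseudocount of 0.2, and 0.166 for the ALKBH5 axis without control replicate 2 (range −0.491 to 0.166 with 1 library left out). Among 174 named genes no called effect reversed, and 18 uncentred and 95 centred values that were never called changed sign. The cause of these changes was not tested, except that fewer libraries leave fewer residual degrees of freedom.

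Replicate numbers did not pair the libraries: same-numbered knockdown and control libraries deviated together with r = −0.00272 at 4.5 h, and between 0.00834 and 0.0157 at the other times. With the replicate block 6149 genes were called uncentred and 119 centred, 116 of them shared with the 135. The unknown number of T bases per rate and 2 libraries per group limit the precision.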
